A study of Mus musculus with 13 samples.

Results

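Type I interferon-stimulated genes were followed in 4T1 mammary tumours of mice. The group was a list of 37 genes chosen by symbol, and each was matched to the deposited row that carried its symbol. A row was found for 36 of them, 1 per gene, among 22206 features tested. Ifi44 was not analysed here. The members were named as a pathway and not by any threshold on their values.

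Each array held RNA pooled from tumours that had grown in 1 mammary fat pad of BALB/c mice, measured on the Clariom S mouse array. The injected cells were 4T1OE, a 4T1 line transduced to overexpress NLRX1, 4T1OE-CTL, the transduced control of that line, or untransduced parental 4T1, a mouse mammary carcinoma line. Hosts were Nlrx1-/- or WT BALB/c mice, with 2 arrays for each of the 6 pairings of host and line, and no treatment was given. The number of tumours in a pool, the age of the mice, the vector, the species of the construct and whether each transduced line was a single clone are not given in the sources used here, and all 4T1OE and 4T1OE-CTL tumours rest on 1 line each. In both hosts the tumour cells were of 4T1 origin and so not knocked out. The label of Nlrx1-/- parental replicate 1 bears the array service's advice to leave it out, so the fits used the other 11 tumour arrays and 1 Nlrx1-/- parental array remained.

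Type I interferons bind a receptor on nearly every cell type and act through the kinases Jak1 and Tyk2. These phosphorylate STAT2, which joins IRF9 in a complex that binds interferon-stimulated response elements beside its target genes. The products of those genes sense viral nucleic acid, block translation or virus release, tag proteins with ISG15, and feed back on the pathway itself. In tumours this programme is known to be switched on by DNA or RNA sensed in cancer cells or in infiltrating cells, and many of its genes also answer interferon gamma. NLRX1, a mitochondrial protein of the NOD-like receptor family, has been described as a regulator of mitochondrial antiviral signalling.

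The letters of the response element were more common in the promoters of these genes than in promoters at large. A RefSeq promoter window, from 250 bases before to 50 bases after the annotated start, was found for 26 of the 36 genes. Its letters, GAAA and again GAAA parted by any 2 bases, searched on both strands with overlaps allowed, stood in the windows of 12 of these 26 genes (46.2%), against 1079 of all 27025 genes with a window (3.99%). The letters of a STAT-type site, TTC and GAA parted by any 3 bases, which reads alike on both strands, stood in 5 of 26 (19.2%), against 9.55% of all genes. The windows below show how the element is spaced in genes that the results turn on. They are from the GRCm38.p6 reference, a C57BL/6J genome, run 5′ to 3′ along the strand of the gene, and the capitals mark the matches of the response element in either direction. Isg15 (chr4:156200769-156201068, minus strand) holds 3 overlapping matches, first bases at -78, -72 and -66 from the start. Ifit1 (chr19:34640639-34640938, plus strand) holds a match at -104 and another at -85. In Bst2 (chr8:71537423-71537722, minus strand) a pair of matches overlaps at -130 and -124. Stat2 (chr10:128270248-128270547, plus strand) has a match at -222. The match of Eif2ak2 (chr17:78882523-78882822, minus strand) lies after the start, at base 19 of the transcript. Herc6 (chr6:57580742-57581041, plus strand), the member that differed most between 4T1OE and 4T1OE-CTL tumours, has none in this window.
Isg15: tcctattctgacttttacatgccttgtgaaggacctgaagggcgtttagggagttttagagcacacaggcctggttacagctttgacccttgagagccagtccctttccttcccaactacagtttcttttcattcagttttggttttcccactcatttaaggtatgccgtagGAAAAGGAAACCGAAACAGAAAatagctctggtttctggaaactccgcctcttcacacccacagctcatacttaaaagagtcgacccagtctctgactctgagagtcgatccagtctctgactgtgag
Ifit1: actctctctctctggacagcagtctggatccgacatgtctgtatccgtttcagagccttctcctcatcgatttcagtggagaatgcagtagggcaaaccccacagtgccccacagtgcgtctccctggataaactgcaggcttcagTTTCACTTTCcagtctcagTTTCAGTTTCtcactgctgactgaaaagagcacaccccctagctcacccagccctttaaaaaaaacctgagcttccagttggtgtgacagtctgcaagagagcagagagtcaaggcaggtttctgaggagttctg
Bst2: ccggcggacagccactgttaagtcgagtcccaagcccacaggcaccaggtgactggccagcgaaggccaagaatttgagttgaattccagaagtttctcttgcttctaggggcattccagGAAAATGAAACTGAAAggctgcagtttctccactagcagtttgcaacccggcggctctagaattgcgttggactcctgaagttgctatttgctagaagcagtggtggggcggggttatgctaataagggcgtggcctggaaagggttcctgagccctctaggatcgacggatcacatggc
Stat2: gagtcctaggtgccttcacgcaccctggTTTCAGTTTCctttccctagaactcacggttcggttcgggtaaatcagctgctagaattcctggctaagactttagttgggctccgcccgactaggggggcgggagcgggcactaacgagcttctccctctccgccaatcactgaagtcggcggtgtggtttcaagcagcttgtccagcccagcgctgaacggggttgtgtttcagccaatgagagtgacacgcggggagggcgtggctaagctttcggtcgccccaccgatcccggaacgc
Eif2ak2: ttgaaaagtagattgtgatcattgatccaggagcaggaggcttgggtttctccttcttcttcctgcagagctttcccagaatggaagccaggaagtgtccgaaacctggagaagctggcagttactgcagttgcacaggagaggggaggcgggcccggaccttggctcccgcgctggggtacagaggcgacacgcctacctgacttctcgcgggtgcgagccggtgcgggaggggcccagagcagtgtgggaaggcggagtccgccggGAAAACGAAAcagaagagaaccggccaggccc
Herc6: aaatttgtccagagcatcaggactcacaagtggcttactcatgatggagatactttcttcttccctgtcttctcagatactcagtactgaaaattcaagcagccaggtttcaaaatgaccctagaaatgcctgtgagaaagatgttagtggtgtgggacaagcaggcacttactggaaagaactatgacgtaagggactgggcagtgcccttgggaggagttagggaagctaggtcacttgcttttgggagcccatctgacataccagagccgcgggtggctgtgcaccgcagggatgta

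Genes with and without the element had overlapping differences between the lines. In 4T1OE-CTL against parental tumours the median fitted difference was 1.68 over the 12 genes with a match and 1.20 over the 14 without, and 7 and 6 of them passed the test. Both groups spanned nearly the same range, 0.15 to 2.74 with a match and -0.13 to 2.55 without. No test was made of this split.

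All values are log2 expression values as deposited, so a difference of 1 is a factor of 2, and a level of 1 gene is never set against that of another gene. A gene's values are given for Nlrx1-/- hosts, replicates 1 and 2, and then for WT hosts, replicates 1 and 2. For parental tumours they are Nlrx1-/- replicate 2, WT replicate 1 and WT replicate 2. Differences were fitted with limma over all 22206 features, and a gene passed at a Benjamini-Hochberg adjusted p under 0.05 over all of them. The p-values measure the spread between pools. In these bulk tumours fewer cells of a type and less RNA per cell cannot be told apart.

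Facts of the whole series that touch these genes were as follows. Nlrx1 itself lay between 9.31 and 10.67 on the 4 4T1OE arrays, between 5.99 and 7.06 on the 4 4T1OE-CTL arrays and between 6.14 and 7.13 on the 4 parental arrays. The standard deviation of the values within an array was 3.09 to 3.12 in 4T1OE, 2.78 to 3.07 in 4T1OE-CTL and 2.89 to 3.07 in the fitted parental tumours, and 2.53 on the array left out. B cell markers, as a list of 10 genes, lay 3.09 above their usual level on Nlrx1-/- 4T1OE replicate 1 and 4.21 above it on Nlrx1-/- 4T1OE-CTL replicate 1. On no other fitted array did they lie more than 0.112 above it. Of the 36 genes, 27 lay above the median of the array's negative control features on all 12 arrays, 8 lay under it on some, and Oasl1 lay under it on every array. The labelled mammary carcinoma was looked at in its epithelial keratins. Krt8 and Krt18 were at 13.05 or above on all fitted arrays and Krt7 at 10.33 or above. Krt19 lay under the negative controls on 8 of 12 arrays and Krt14 on 2. Epcam, an epithelial adhesion gene, was 7.77 to 9.08 in 4T1OE, 6.94 to 9.81 in 4T1OE-CTL and 13.02 to 14.95 in parental tumours.

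Most of the genes were ordered alike across the lines. In 29 of 36 members (80.6%) the line mean was highest in 4T1OE-CTL, intermediate in 4T1OE and lowest in parental tumours, an order that 15.9% of all features had. The highest of the 11 fitted arrays was a 4T1OE-CTL array for 31 genes, Nlrx1-/- replicate 1 for 14 of them and WT replicate 1 for another 14. Of all features 45.8% were highest on a 4T1OE-CTL array, 9.66% on Nlrx1-/- replicate 1 and 10.4% on WT replicate 1. No gene was highest on a parental array, where 29.1% of all features were. The lowest was a parental array for 28 genes and for 28.4% of all features. For 24 of these genes it was Nlrx1-/- replicate 2, where 8.2% of all features had their lowest value. A 4T1OE-CTL array was the lowest for 4 genes and for 41.1% of all features. The median deviation of the 36 genes from their own medians was 0.08, 0.00, -0.04 and 0.00 on the 4T1OE arrays, 0.99, 0.22, 0.87 and 0.61 on the 4T1OE-CTL arrays and -1.05, -0.26 and -0.35 on the parental arrays. The lines did not overlap in it. The 4 4T1OE arrays differed from each other by less than the pooled standard deviation between replicates, which was 0.26, whereas the Nlrx1-/- 4T1OE-CTL replicates differed by more than it.

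**Figure D1:**
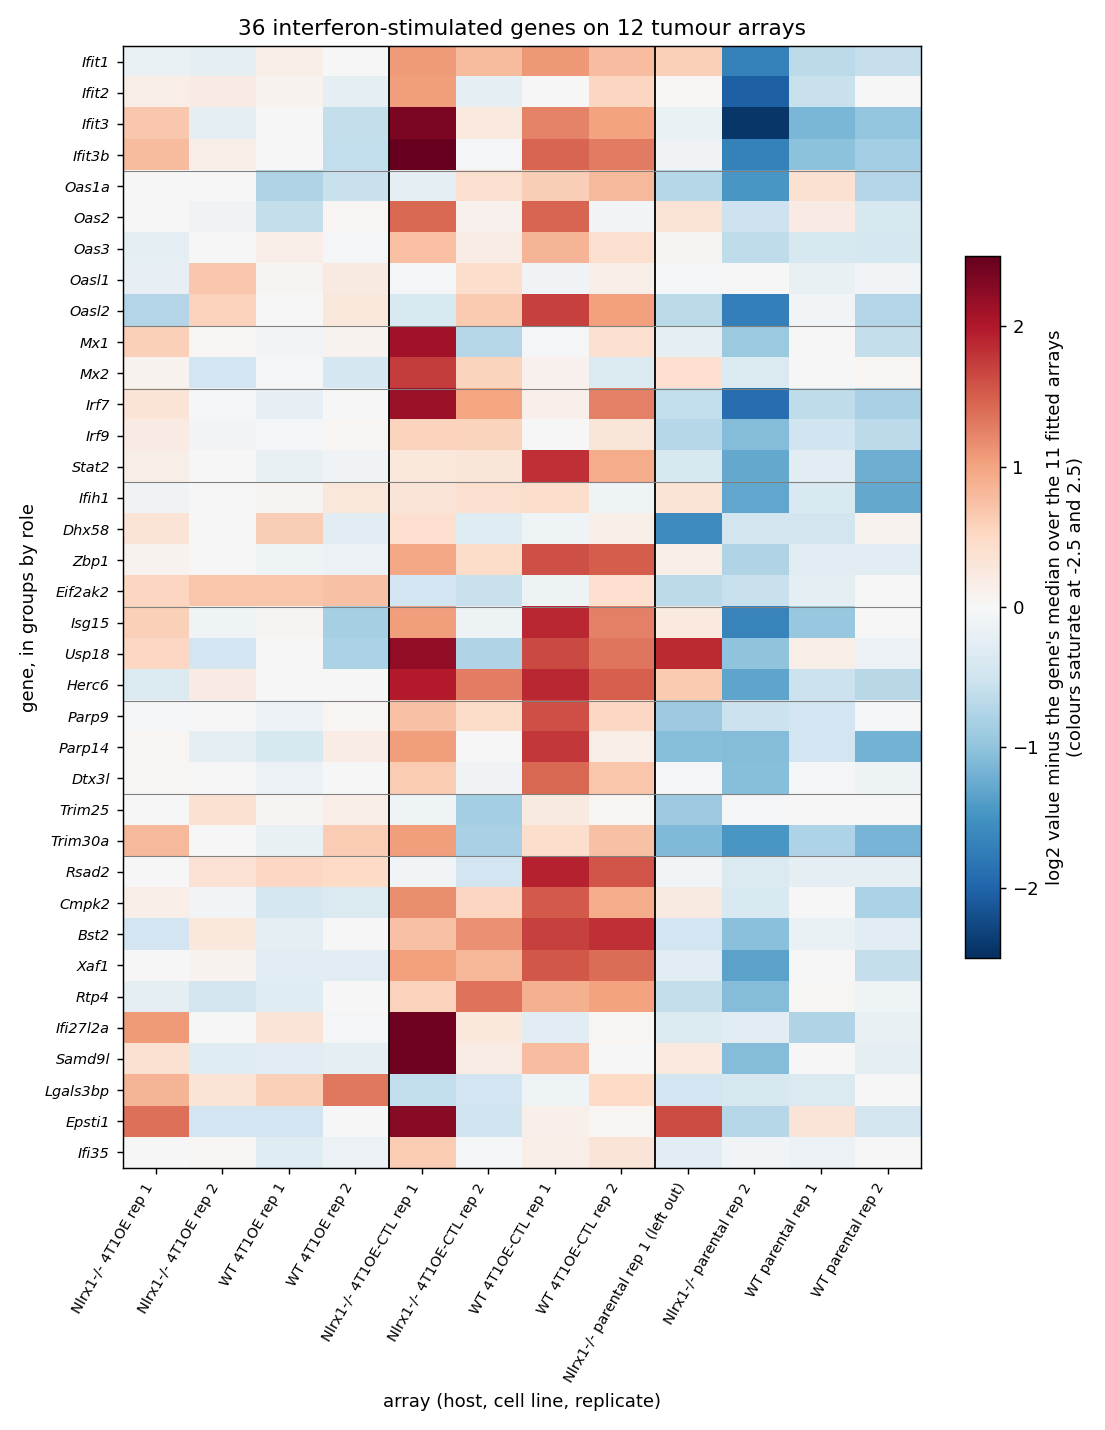
Deviation of each of 36 genes (rows, in role groups) from its own median (11 fitted arrays, log2 scale) on 12 tumour arrays (columns, by line, black lines between lines). Red cells gather in the 4T1OE-CTL columns, where 31 genes (and 45.8% of all features) had their highest fitted value. Blue cells gather in the column of Nlrx1-/- parental replicate 2, where 24 genes (and 8.2% of all features) had their lowest.

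4T1OE tumours were set against 4T1OE-CTL tumours to ask what differs when NLRX1 is overexpressed. Of the 36 genes 7 fell and 2 rose in 4T1OE tumours. Over all features 4.73% passed in this comparison, 1.04% lower and 3.69% higher. The genes that fell were Herc6, Bst2, Xaf1, Cmpk2, Rtp4, Zbp1 and Ifit1, and those that rose were Eif2ak2 and Lgals3bp. The median fitted difference was -0.73 over the 36 genes and -0.05 over all features, and 31 members had a negative one, while 45.1% of all features had a positive one. On every 4T1OE array 10 genes lay lower than on any 4T1OE-CTL array, and 1 gene lay higher. Over all features 7.13% lay lower in that way and 9.39% higher.

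Herc6, the ligase that attaches ISG15 to proteins in mice, had the largest difference. It measured 10.22, 10.78, 10.58 and 10.58 in 4T1OE tumours, 12.57, 11.85, 12.47 and 12.07 in 4T1OE-CTL tumours and 9.26, 10.04 and 9.88 in parental tumours. The fitted arrays of the 3 lines did not overlap. Its difference was -1.70 between 4T1OE and 4T1OE-CTL tumours (SE 0.23, adjusted p = 0.00594). Isg15, the ubiquitin-like protein itself, measured 6.72, 6.02, 6.20 and 5.30 in 4T1OE tumours and 7.17, 6.00, 8.01 and 7.38 in 4T1OE-CTL tumours, so the lines overlapped at the Nlrx1-/- arrays. Its difference of -1.08 did not pass (SE 0.43, adjusted p = 0.157), and WT 4T1OE replicate 2 lay under the negative controls. Usp18, the protease that removes ISG15 and dampens receptor signalling, differed by -1.30, also without passing (SE 0.54, adjusted p = 0.170).

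Of the 10 other effectors 4 fell and 1 rose. Bst2, the tetherin that holds budding virions on the cell surface, measured 8.56, 9.29, 8.80 and 9.03 in 4T1OE tumours and 9.76, 10.18, 10.73 and 10.85 in 4T1OE-CTL tumours. All 4 4T1OE arrays lay below the lowest 4T1OE-CTL array, and Bst2 fell by 1.47 (SE 0.24, adjusted p = 0.0134). Xaf1, which counters an inhibitor of apoptosis, averaged 9.33 ± 0.18 in 4T1OE and 10.6 ± 0.34 in 4T1OE-CTL tumours (SD, n = 4 each) and fell by 1.31 (adjusted p = 0.0216). Cmpk2, a mitochondrial nucleotide kinase, fell by 1.22 (adjusted p = 0.0279). Rtp4, a chaperone of membrane receptors, fell by 1.20 (adjusted p = 0.0238). Rsad2, the neighbour of Cmpk2 and the gene of the antiviral enzyme viperin, did not pass, with a difference of -0.39 (adjusted p = 0.498).

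Zbp1 and Ifit1, from the sensors and the IFIT family, were the remaining falls. Zbp1 recognises nucleic acid in the left-handed Z form and can start necroptosis. Its values were 7.96, 7.88, 7.77 and 7.73 in 4T1OE tumours and 8.84, 8.34, 9.50 and 9.40 in 4T1OE-CTL tumours, without overlap, and it fell by 1.18 (SE 0.23, adjusted p = 0.0205). Ifit1, which binds foreign capped RNA and blocks its translation, measured 6.48, 6.40, 6.81 and 6.65 in 4T1OE tumours and 7.71, 7.44, 7.73 and 7.43 in 4T1OE-CTL tumours. The groups did not overlap, and Ifit1 fell by 0.99 (SE 0.22, adjusted p = 0.0298). Ifit3 and Ifit3b, which are near-identical to each other and whose probes may share signal, differed by -1.25 and -1.23 with overlapping arrays (adjusted p = 0.125 and 0.143).

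Eif2ak2 and Lgals3bp rose, while Oasl1, Dhx58 and Trim25 also had positive differences that did not pass. Eif2ak2 encodes PKR, the RNA-activated kinase that stops translation initiation. Its values were 10.87, 11.03, 11.02 and 11.06 in 4T1OE tumours and 9.85, 9.77, 10.21 and 10.75 in 4T1OE-CTL tumours. Each 4T1OE array lay above the highest 4T1OE-CTL array, and Eif2ak2 rose by 0.85 (SE 0.20, adjusted p = 0.0344). Lgals3bp, a secreted galectin-binding glycoprotein, measured 10.77, 10.26, 10.52 and 11.23 in 4T1OE tumours and 9.30, 9.45, 9.81 and 10.42 in 4T1OE-CTL tumours. It rose by 0.95 (SE 0.24, adjusted p = 0.0438), although WT 4T1OE-CTL replicate 2 lay above Nlrx1-/- 4T1OE replicate 2.

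No member of the OAS family, the Mx GTPases, the transcription factors, the PARP-DTX3L genes or the TRIM proteins passed between 4T1OE and 4T1OE-CTL tumours. The transcription factors Irf7, Stat2 and Irf9 differed by -1.10, -0.87 and -0.32 (adjusted p = 0.123, 0.118 and 0.348). Parp9, which acts with Dtx3l in ADP-ribosylation and ubiquitin transfer, differed by -0.87 with no overlap between the arrays (adjusted p = 0.0637). Parp14 and Dtx3l differed by -0.85 and -0.70. Among the OAS genes, whose products make the oligoadenylates that activate RNase L, Oas3 was lower on every 4T1OE array and differed by -0.57 (adjusted p = 0.101). Mx2 differed by -0.73 and Mx1 by -0.26. Trim30a, a mouse ubiquitin ligase, differed by -0.04, and Trim25, which ubiquitinates the RNA sensor RIG-I, by 0.33.

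The count of 9 rested on single arrays. It was 1 without Nlrx1-/- 4T1OE replicate 1 or WT 4T1OE replicate 2, 2 without WT 4T1OE replicate 1 or WT 4T1OE-CTL replicate 1, 4 without Nlrx1-/- 4T1OE replicate 2 and 5 without Nlrx1-/- 4T1OE-CTL replicate 1. It was 0 with all 12 arrays, with each array's standard deviation in the model or without the 2 arrays high in B cell genes, while the median ran from -0.98 to -0.49 over every alternative. Calls over all features also fell in the settings that gave 0, as the closing section shows. A fit without 1 array has fewer degrees of freedom, and its calls over all features are not given here. These falls are therefore not read as particular to the members. Herc6 passed under 18 of 22 alternatives and Lgals3bp under 7. Any effect of NLRX1 cannot be told apart from other differences between the lines.

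**Figure D2:**
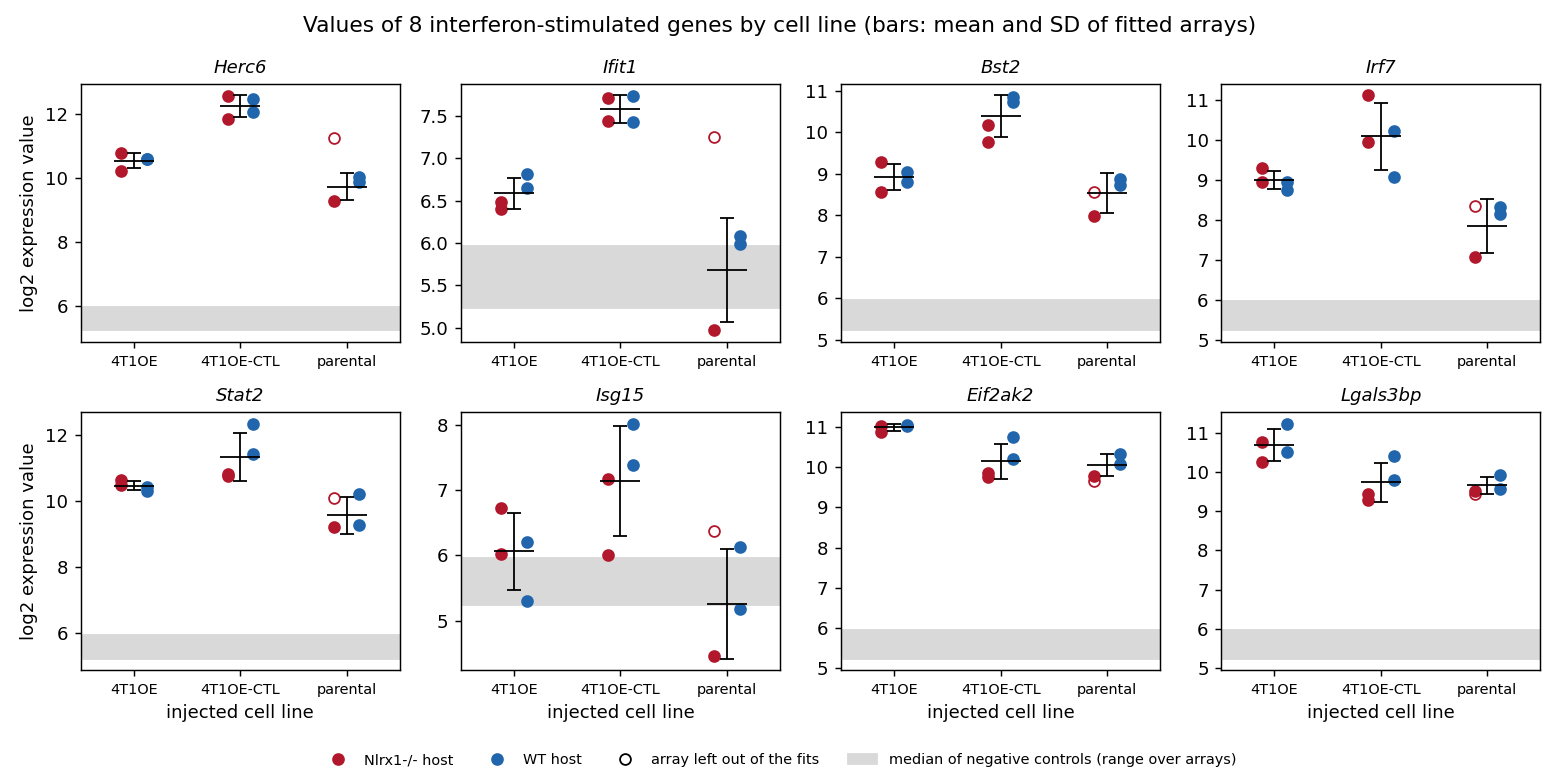
Log2 values of 8 genes on every tumour array by injected line, with red points for Nlrx1-/- hosts, blue points for WT hosts, an open point for the array left out, and the mean and SD of the fitted arrays. The grey band spans the medians of the negative control features, and the fitted arrays of Herc6 stand clear of each other by line, at 10.22 to 10.78 in 4T1OE, 11.85 to 12.57 in 4T1OE-CTL and 9.26 to 10.04 in parental tumours.

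4T1OE-CTL tumours were set against parental tumours to see what the transduced control line carried. Here 17 of the 36 genes rose in 4T1OE-CTL tumours and none fell, where 0.968% of all features were higher and 2.59% passed in either direction. The median difference was 1.25 over the members and 0.02 over all features, and 35 members had a positive one, as 52.0% of all features did. With genes under the negative controls set to their bound, the median was 1.26. On every 4T1OE-CTL array 17 genes lay above all 3 fitted parental arrays, as 4.88% of all features did. These comparisons share the 4T1OE-CTL arrays, so neither is independent of the other.

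Of the IFIT family 3 of 4 genes rose, as did all 3 transcription factors, with median differences of 2.23 and 1.84. Ifit3 measured 10.93, 8.82, 9.81 and 9.58 in 4T1OE-CTL tumours and 6.14, 7.43 and 7.58 in parental tumours. All 4 4T1OE-CTL arrays were higher, and Ifit3 rose by 2.74 (SE 0.50, adjusted p = 0.0144). Ifit3b rose by 2.50 (adjusted p = 0.0270) and Ifit1 by 1.96 (SE 0.24, adjusted p = 0.00158). Ifit2, which was under the negative controls on Nlrx1-/- parental replicate 2, differed by 1.26 without passing (adjusted p = 0.162). Irf7, the factor that amplifies interferon production, had values of 11.12, 9.95, 9.08 and 10.22 in 4T1OE-CTL tumours and 7.06, 8.33 and 8.15 in parental tumours. It rose by 2.22 (SE 0.43, adjusted p = 0.0200). Stat2 and Irf9, partners in the complex that binds the response element, also rose. Stat2 measured 10.76, 10.80, 12.32 and 11.42 in 4T1OE-CTL tumours and 9.22, 10.21 and 9.26 in parental tumours, a rise of 1.84 (SE 0.33, adjusted p = 0.0148). Irf9 rose by 1.09 (adjusted p = 0.0249).

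In the ISG15 system Herc6 rose by 2.55 (SE 0.25, adjusted p = 0.000768), the smallest p among the members. Isg15 measured 7.17, 6.00, 8.01 and 7.38 in 4T1OE-CTL tumours and 4.46, 5.18 and 6.13 in parental tumours. Its fitted difference was 1.97, and it missed the threshold (SE 0.47, adjusted p = 0.0512). Nlrx1-/- parental replicate 2 and WT parental replicate 1 lay under the negative controls for Isg15. Usp18 differed by 1.50 (adjusted p = 0.235), and Nlrx1-/- 4T1OE-CTL replicate 2, at 7.11, lay among the parental arrays, at 6.87, 8.03 and 7.73.

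Sensors, OAS genes and ADP-ribosylation genes each held some members that rose. Zbp1 rose by 1.63 (SE 0.25, adjusted p = 0.00517) and Ifih1, the sensor of long paired viral RNA, by 1.27 (adjusted p = 0.0240). Dhx58, a regulator of the RIG-I family, and Eif2ak2 differed by 0.32 and 0.15 and did not pass (adjusted p = 0.635 and 0.808). Oasl2 rose by 1.73 (adjusted p = 0.0414), with Nlrx1-/- 4T1OE-CTL replicate 1 at 11.37, below WT parental replicate 1 at 11.69. Oas3 was under the negative controls on all parental arrays and was at least 0.48 higher in 4T1OE-CTL tumours (adjusted p = 0.0189). Oas1a differed by 1.06 (adjusted p = 0.201). Parp14, a transferase of single ADP-ribose units, rose by 1.70 (adjusted p = 0.0398) and Parp9 by 1.22 (adjusted p = 0.0335). Dtx3l differed by 1.16 (adjusted p = 0.0611).

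A further 4 effectors rose, namely Bst2, Xaf1, Cmpk2 and Rtp4. Bst2 had values of 9.76, 10.18, 10.73 and 10.85 in 4T1OE-CTL tumours and 7.99, 8.87 and 8.74 in parental tumours, a rise of 1.93 (SE 0.26, adjusted p = 0.00269). Xaf1 rose by 1.90 (adjusted p = 0.00442), Cmpk2 by 1.44 (adjusted p = 0.0218) and Rtp4 by 1.40 (adjusted p = 0.0178), each without overlap. Samd9l, a gene that restrains translation and growth, had no overlap either, but by a very narrow margin. WT 4T1OE-CTL replicate 2 and WT parental replicate 1 both rounded to 11.28. The Samd9l difference of 1.25 did not pass (adjusted p = 0.246). Lgals3bp, Ifi35, which pairs with Nmi, and Epsti1, named for its induction where breast epithelium meets stroma, differed by 0.16, 0.33 and 0.70 without passing. BALB/c mice, like many inbred strains, carry a defective Mx1 allele. Mx1 and Mx2, dynamin-like GTPases of an antiviral family, differed by 0.91 and 0.55 and did not pass (adjusted p = 0.442 and 0.542). Trim30a differed by 1.52 (adjusted p = 0.0746), and Trim25, at -0.13, was the only member with a negative value.

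**Figure D3:**
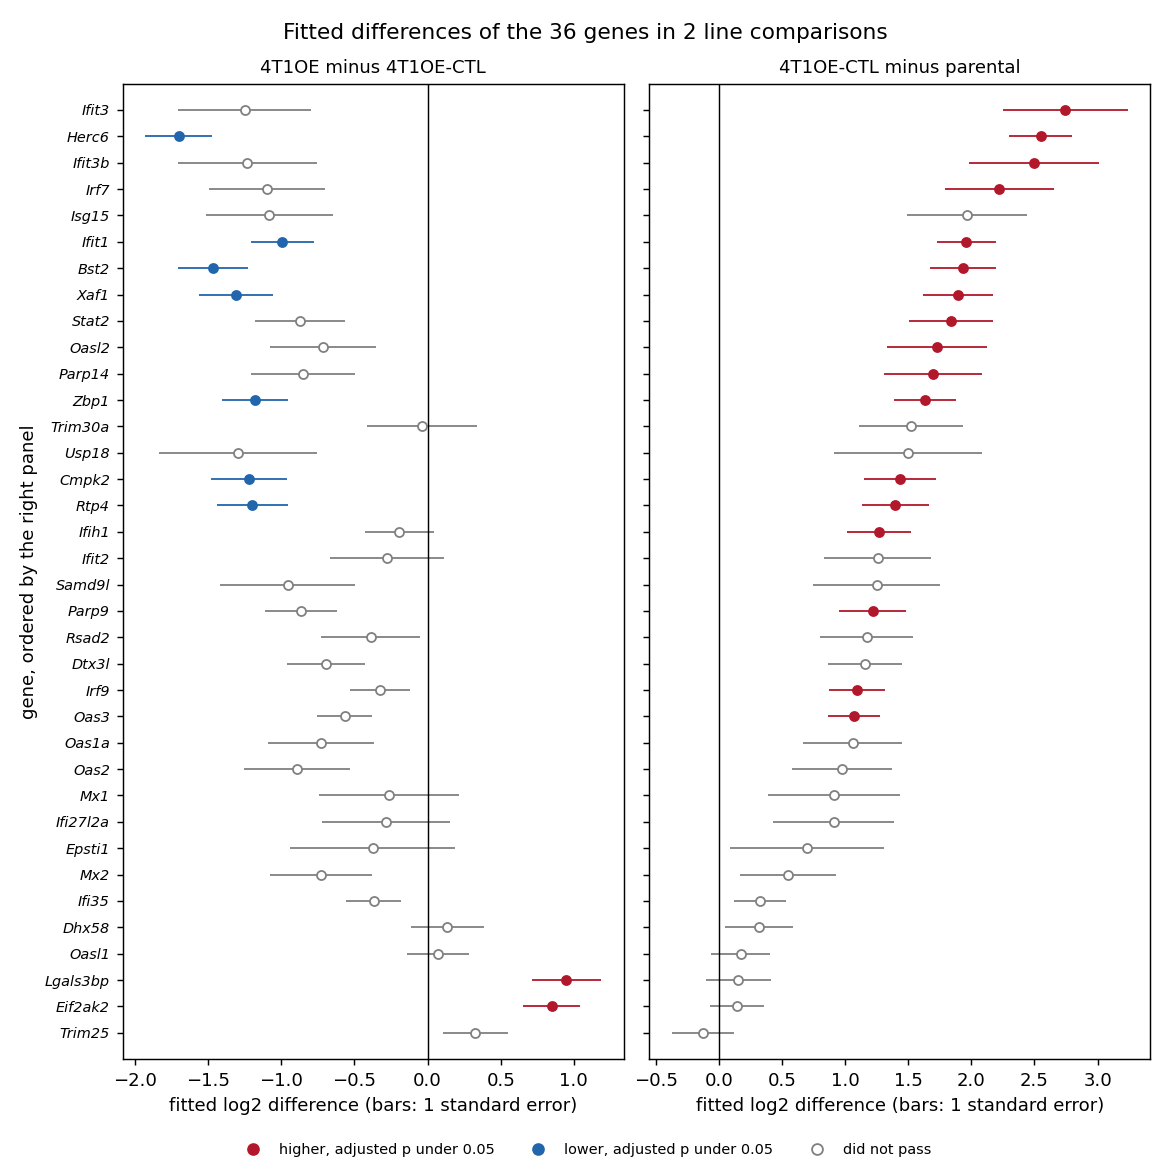
Fitted log2 differences of the 36 genes with 1 standard error, for 4T1OE minus 4T1OE-CTL (left) and 4T1OE-CTL minus parental (right), ordered by the right panel; filled points passed. The left panel has 7 genes filled below 0 and 2 above, the right panel 17 above 0, and both panels share the 4T1OE-CTL arrays.

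The count of genes that rose in 4T1OE-CTL over parental tumours depended most on the lone Nlrx1-/- parental array. The median difference over the members stayed between 1.08 and 1.50 with any 1 array left out. Without Nlrx1-/- parental replicate 2 the count of 17 was 3, without WT parental replicate 2 it was 8, and without WT 4T1OE-CTL replicate 1 it was 10. With all 12 arrays it was 8, and the array then added, Nlrx1-/- parental replicate 1, lay above the other 3 parental arrays in 17 of the 36 genes. Calls over all features also fell with all 12 arrays, and those without single arrays are not given here. Herc6 passed under all 22 alternatives, and Zbp1, Bst2 and Xaf1 each passed under 21.

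4T1OE tumours lay above parental tumours in most members, but 1 gene passed. Eif2ak2 measured 10.87, 11.03, 11.02 and 11.06 in 4T1OE tumours and 9.78, 10.09 and 10.33 in parental tumours, and rose by 0.99 (SE 0.21, adjusted p = 0.0458). Over all features 1.33% passed in either direction and 0.887% passed as higher. The median difference was 0.61 over the members and -0.03 over all features, and 34 members had a positive one, as 46.7% of all features did. On every 4T1OE array 16 genes lay above all fitted parental arrays, as 9.96% of all features did. The largest values among genes that did not pass were those of Ifit3 (1.49, adjusted p = 0.190), Trim30a (1.48, adjusted p = 0.111) and Ifit3b (1.26, adjusted p = 0.294). Lgals3bp, at 1.10, had an adjusted p of 0.0647. Without any 1 array the count was 0 to 3, and Eif2ak2 passed under 6 of 22 alternatives.

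Nlrx1-/- hosts were set against WT hosts to ask whether host Nlrx1 bears on these genes. None of the 36 genes passed between 5 arrays of Nlrx1-/- and 6 of WT hosts (limma), and 0.00% of all features did. At an unadjusted p under 0.05 there were 5 members, Rsad2, Oasl2, Bst2, Eif2ak2 and Lgals3bp, all lower in Nlrx1-/- hosts, and 955 of all features (4.30%). The median difference over the members was -0.22, with 24 negative, and 0.00 over all features, of which 50.7% were positive. Oasl2 differed by -0.87 (SE 0.31, adjusted p = 1.00) and Bst2 by -0.51 (SE 0.21). Rsad2 was under the negative controls on all Nlrx1-/- arrays and was at least 0.22 lower there. Ifi27l2a, a small interferon-induced membrane protein gene, had the highest value, 0.74 (SE 0.38). It lay under the negative controls on 8 of 11 fitted arrays, and its highest values, 6.06 and 7.44, were on the 2 arrays high in B cell markers, whose part was not tested.

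Within single lines no member passed between the hosts either. In 4T1OE tumours the median over the members was 0.14, in 4T1OE-CTL tumours -0.14 and in parental tumours -0.51, with 0.00% of all features called in each. The median in 4T1OE-CTL tumours was -0.61 without Nlrx1-/- replicate 1 and 0.12 without Nlrx1-/- replicate 2. In 4T1OE-CTL tumours Rsad2 measured 4.92 and 4.50 in Nlrx1-/- and 6.90 and 6.56 in WT hosts. It was at least 1.11 lower in Nlrx1-/- hosts (adjusted p = 0.125). In parental tumours the single Nlrx1-/- array lay below both WT arrays in 30 of 36 genes, where 29.7% of all features did, and with all 12 arrays the median there was -0.24. In 4T1OE-CTL tumours the 2 Nlrx1-/- arrays differed in several genes. Mx1 measured 9.22 and 6.41 on them, against 7.09 and 7.53 in WT hosts, and Ifi27l2a 7.44 and 5.27, against 4.71 and 5.05. Both genes were high on replicate 1, the array high in B cell markers, and the part of those cells was not tested.

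The line difference was also fitted within each host. In Nlrx1-/- hosts Herc6 alone passed between 4T1OE and 4T1OE-CTL tumours, at -1.71 (SE 0.33, adjusted p = 0.0435), where 1.19% of all features passed and 0.0946% passed as lower. On both 4T1OE arrays 15 genes lay below both 4T1OE-CTL arrays, as 28.3% of all features did, and the median was -0.53. Other large values were those of Irf7 (-1.41, adjusted p = 0.130), Mx2 (-1.35, adjusted p = 0.111) and Rtp4 (-1.31, adjusted p = 0.0660). In WT hosts none passed by limma, and 0.0135% of all features passed. At an unadjusted p under 0.05 there were 17 members, and 8.07% of all features. In these hosts 22 genes were lower on both 4T1OE arrays, as 20.7% of all features were, and the median was -0.91. The largest values in WT hosts were those of Isg15 (-1.94, adjusted p = 0.342), Usp18 (-1.88, adjusted p = 0.585) and Bst2 (-1.88, adjusted p = 0.0964). The call of Herc6 ended without any of 8 arrays, namely both Nlrx1-/- 4T1OE, both Nlrx1-/- 4T1OE-CTL, both WT 4T1OE and both WT 4T1OE-CTL replicates, and without the 2 arrays high in B cell markers its difference was -1.07.

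The 4T1OE difference did not differ detectably between the hosts for any member. The interaction passed for 0 of 36 genes and 0.00% of all features. It had an unadjusted p under 0.05 for 5 members, Rsad2, Zbp1, Stat2, Oas1a and Isg15, and for 3.27% of all features. Rsad2 measured 4.98 and 5.35 in 4T1OE and 4.92 and 4.50 in 4T1OE-CTL tumours of Nlrx1-/- hosts, all under the negative controls, so no size is given for it. The other 4 had the more negative difference in WT hosts. Isg15 differed by -0.22 in Nlrx1-/- hosts and by -1.94 in WT hosts, an interaction of 1.72 (SE 0.72, adjusted p = 0.999). For this gene WT 4T1OE replicate 2 lay under the negative controls. For Stat2 the pair was -0.22 and -1.52, and for Zbp1 -0.67 and -1.70. Herc6 differed by nearly the same amount in both hosts, -1.71 in Nlrx1-/- and -1.69 in WT. The median interaction over the members was 0.36, and it was -0.21 without Nlrx1-/- 4T1OE-CTL replicate 2 and 0.70 without replicate 1 of that group, so its direction rested on 1 array.

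**Figure D4:**
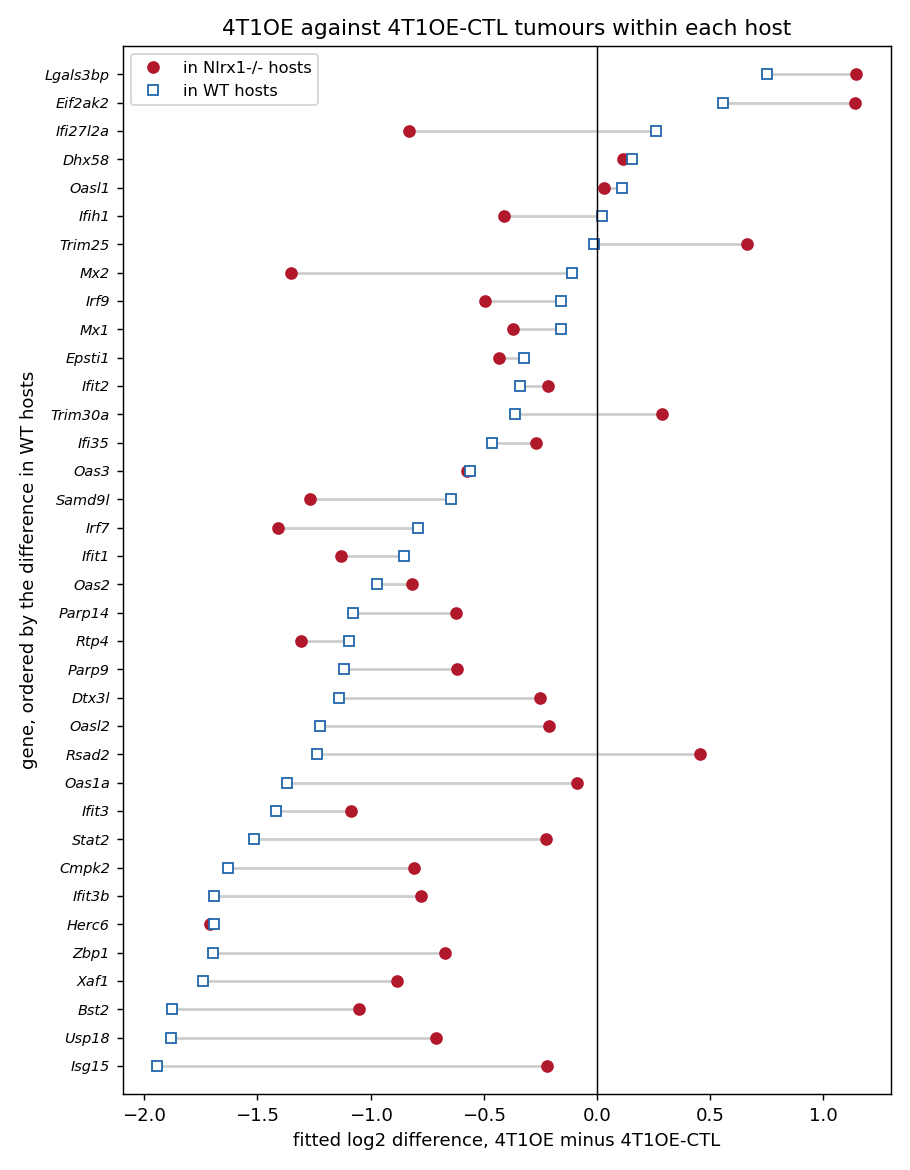
Fitted log2 difference of 4T1OE minus 4T1OE-CTL for 36 genes in Nlrx1-/- hosts (red points) and WT hosts (open blue squares), ordered by the WT value, 2 arrays a group. Herc6 lies near -1.7 in both hosts, Isg15 lies at -0.22 and -1.94, and no gene's difference between the hosts passed.

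Some genes upstream of the members passed between the lines. Of 16 type I interferon genes measured, 11 lay under the negative controls on all 4T1OE arrays, 10 on all 4T1OE-CTL arrays and 10 on all parental arrays. Ifnb1 measured 5.51 to 5.69 in 4T1OE, 5.57 to 6.10 in 4T1OE-CTL and 5.38 to 6.08 in fitted parental tumours, so the lines overlapped. Ifnk passed as lower in 4T1OE-CTL against parental tumours, but both sides lay under the controls, and no size is given. In 4T1OE against 4T1OE-CTL tumours, where 4.73% of all features passed, 1 of 6 receptor genes did (16.7%), 2 of 15 transducers (13.3%), 1 of 9 sensors (11.1%) and none of the interferon genes. Ifnar1, a chain of the type I receptor, rose by 0.81 (SE 0.21, adjusted p = 0.0479). Among the transducers Jak2, a kinase used by interferon gamma, fell by 1.70 (adjusted p = 0.0115) and Ticam1, an adaptor of Toll-like receptors, rose by 0.87 (adjusted p = 0.0217). Of the sensors Cgas, which detects cytosolic DNA, rose by 1.19 (adjusted p = 0.0311).

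In 4T1OE-CTL against parental tumours, where 2.59% of all features passed, 1 of 15 transducers did (6.67%), 1 of 9 sensors (11.1%), 1 of 14 negative regulators (7.14%) and no receptor gene. Irf1 rose by 1.58 (adjusted p = 0.0135) among the transducers, Ddx58, the gene of RIG-I, by 1.15 (adjusted p = 0.0182) among the sensors, and Samhd1, a nucleotide hydrolase that limits sensing, by 2.05 (adjusted p = 0.0130) among the negative regulators. Ifng measured 4.86, 5.43, 5.46 and 4.57 in 4T1OE, 5.56, 6.33, 5.85 and 7.13 in 4T1OE-CTL and 4.30, 4.06 and 4.54 in parental tumours. It lay under the negative controls on every fitted parental array and was at least 0.81 higher in the 4T1OE-CTL tumours (adjusted p = 0.0158). In 4T1OE against 4T1OE-CTL tumours it did not pass, with each 4T1OE array below each 4T1OE-CTL array.

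Genes known chiefly for their answer to interferon gamma followed the same order of lines, with larger medians. Of 19 such genes 13 rose in 4T1OE-CTL over parental tumours, where 0.968% of all features did, with a median of 2.83. In 4T1OE over parental tumours 9 rose, where 0.887% of all features did, with a median of 1.85. In 4T1OE against 4T1OE-CTL tumours 4 fell, where 1.04% of all features did, with a median of -0.98. These were Tgtp2 (-2.37, adjusted p = 0.0347), Igtp (-2.09, adjusted p = 0.0238), Gbp4 (-1.98, adjusted p = 0.0440) and Ido1. Tgtp2, Igtp and Gbp4 encode GTPases that attack vacuoles of microbes, and Ido1 encodes a tryptophan-degrading enzyme. Ido1 lay under the negative controls on 10 of 12 arrays, among them every 4T1OE array, so no size is given for it. Of 47 further interferon-stimulated genes outside the list, 12 rose in 4T1OE-CTL over parental tumours (25.5%), with a median of 0.86. In 4T1OE over parental tumours 2 of the 47 rose (4.26%). Against 4T1OE-CTL, 4 of them fell in 4T1OE tumours. They were Ly6e (-2.64, adjusted p = 0.0181), Gm4951 (-1.44, adjusted p = 0.0376), Cd274, the gene of PD-L1 (-1.24, adjusted p = 0.0330), and Parp11 (-1.20, adjusted p = 0.0115). No test was made of the difference between these lists and the 36 genes.

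Markers of other cells moved with the lines too. In 4T1OE against 4T1OE-CTL tumours 4.73% of all features passed, in 4T1OE-CTL against parental 2.59% and in 4T1OE against parental 1.33%. Of 14 macrophage markers 7 rose and none fell in 4T1OE against 4T1OE-CTL tumours, with their mean level at 11.7 to 12.0 in 4T1OE, 9.55 to 10.7 in 4T1OE-CTL and 9.93 to 11.3 in parental tumours. Of 11 NK and cytotoxic markers 2 fell in 4T1OE against 4T1OE-CTL tumours, and 4 rose in 4T1OE-CTL over parental tumours. Their mean level was 5.89 to 6.05 in 4T1OE, 6.55 to 7.06 in 4T1OE-CTL and 5.07 to 5.72 in parental tumours, without overlap. Of 12 T cell markers 1, Il7r, passed as lower in 4T1OE against 4T1OE-CTL tumours and as higher in 4T1OE-CTL over parental tumours. All 12 had a negative difference in the first comparison (median -1.02) and a positive one in the second (median 1.88). On every 4T1OE-CTL array 9 of them lay above all fitted parental arrays, as 4.88% of all features did. T cell markers had a mean level of 6.10 to 8.46 in 4T1OE, 6.72 to 9.38 in 4T1OE-CTL and 5.91 to 6.16 in parental tumours. Of 12 epithelial markers 7 fell in 4T1OE-CTL and 6 in 4T1OE against parental tumours, with mean levels of 8.21 to 8.75 in 4T1OE, 7.52 to 9.56 in 4T1OE-CTL and 10.4 to 11.9 in parental tumours. Markers under the negative controls on every array of a line numbered 3 of 11 for NK cells in 4T1OE and in 4T1OE-CTL and 5 in parental tumours, and 3 of 12 for T cells in parental tumours alone. Of 11 endothelial markers 3 rose in 4T1OE against 4T1OE-CTL tumours, with mean levels of 7.85 to 8.63 in 4T1OE, 7.32 to 7.95 in 4T1OE-CTL and 7.77 to 8.74 in parental tumours. Among 9 fibroblast markers 4 fell in 4T1OE and 2 in 4T1OE-CTL against parental tumours, and none passed between 4T1OE and 4T1OE-CTL tumours. Their mean level was 9.65 to 10.2 in 4T1OE, 10.1 to 11.1 in 4T1OE-CTL and 11.2 to 12.2 in parental tumours. Of 7 monocyte markers 2 rose and 1 fell in 4T1OE against 4T1OE-CTL tumours, and 2 rose and 1 fell in 4T1OE-CTL against parental tumours. Of 12 skeletal muscle markers none passed between any 2 lines. All 12 had a positive difference in 4T1OE-CTL against parental tumours, with a median of 2.05, where 52.0% of all features had a positive one. On every 4T1OE-CTL array 8 of these muscle markers lay above all fitted parental arrays, as 4.88% of all features did. Their mean level was 5.28 to 10.7 in 4T1OE, 6.01 to 9.24 in 4T1OE-CTL and 5.48 to 5.61 in parental tumours, and as a list they lay 4.46 above their usual level on WT 4T1OE replicate 1, 3.01 on Nlrx1-/- 4T1OE-CTL replicate 2 and 2.66 on WT 4T1OE-CTL replicate 1. Siglech, a marker of the plasmacytoid dendritic cells that produce much type I interferon, measured 7.28, 5.98, 6.38 and 5.67 in 4T1OE tumours. It measured 7.14, 7.53, 6.90 and 6.59 in 4T1OE-CTL and 5.70, 6.02 and 5.58 in parental tumours. Of 9 plasmacytoid markers 4 lay higher on every 4T1OE-CTL array than on any fitted parental array, as 4.88% of all features did, and 1 lay lower. In that comparison 1 of the 9 passed, as lower, where 2.59% of all features passed. Among those 4, Pacsin1 lay under the negative controls on all 12 arrays. For Irf8 and Klk1 the lowest 4T1OE-CTL values, 8.36 and 5.24, were close to the highest fitted parental ones, 8.34 and 5.19. On every array of the line, 4 of the 9 lay under the controls in parental tumours and 2 in each other line. In 4T1OE against 4T1OE-CTL tumours 1 of the 9 passed, as higher, where 4.73% of all features passed. The part of these cells in the members' differences was not tested.

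**Figure D5:**
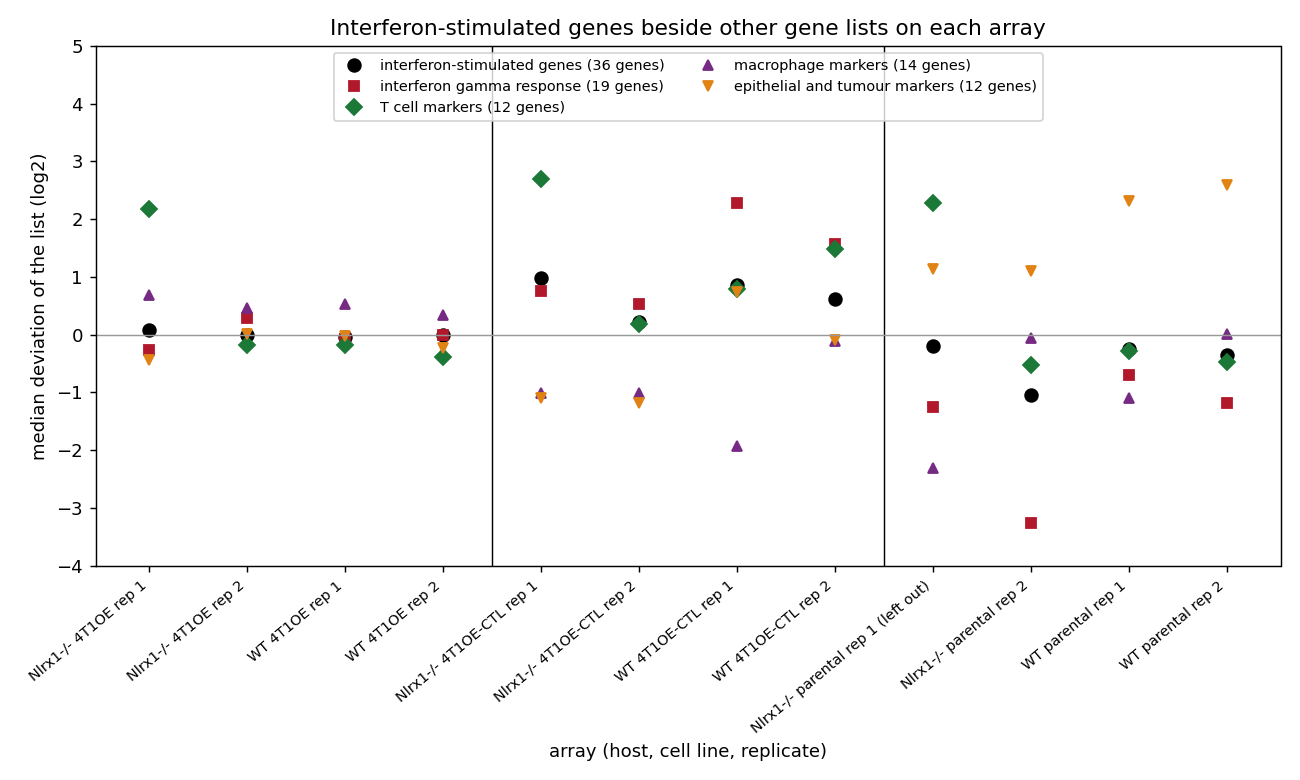
Median deviation of 5 gene lists, on the log2 scale and counted for each gene relative to its fitted-array median, on each of 12 tumour arrays, by line. The interferon-stimulated genes lie at -0.04 to 0.08 on 4T1OE, 0.22 to 0.99 on 4T1OE-CTL and -1.05 to -0.26 on the fitted parental arrays, and the interferon gamma list spans a wider range.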

How the data were processed

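RNA pooled from 4T1 tumours was measured on 12 Clariom S mouse arrays. The deposited log2 values, made by the authors with the Transcriptome Analysis Console per the submitters' processing notes (no version given), were used without further scaling. The normalization method is not given in the sources used here, and arrays differed in the spread of their values. Of 28846 features, 6640 controls were removed and 22206 tested, 19572 of them with 1 gene symbol, 2634 with none and 0 with several. A manufacturer's control sample without values was not used.

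The linear models came from limma 3.58.1 (R 4.3.3), with moderated two-sided tests and Benjamini-Hochberg adjustment across the 22206 features, and were tested on simulated data first. Host plus line gave averaged differences, and 1 mean per group gave those within a host or line and the interaction. The lone Nlrx1-/- parental array was assumed to vary as other groups do. A gene below the negative control median on every array of 1 group got a bound in place of its difference: on each such array the value was set to that median if below it, and the group means were then compared. No size is given for a gene that was below it in both groups, or whose bound had the opposite sign. With no second probe for any member, the choice of row changed nothing.

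The 36 genes, the other lists and the markers were chosen with earlier results of these data known. All members could be named, with those that passed given values, and of other lists the members that passed. Up to 6 promoters could be printed. Promoters are RefSeq's. The alternatives are in the closing section. The number of arrays limits the precision.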

Additional observations from a re-analysis of the deposited data

Results flagged for a closer look

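On the 4 4T1OE arrays Samd9l measured 11.66 on Nlrx1-/- replicate 1 and 10.98 to 11.03 on the other 3, a gap that stood out from the rest of the range. It was the only such value among 72 sets of 4 arrays of 1 line examined, where chance gives about 1 in 20. That array was high in B cell markers, whose part in the value was not tested.

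The array left out, Nlrx1-/- parental replicate 1, lay above the other 3 parental arrays in 17 of 36 members (47.2%), as it did in 37.8% of all features, and below them in 6 (16.7%), against 38.5% of all features. Usp18 measured 9.74 there and at most 8.03 on the others, Epsti1 9.41 and at most 8.10, Herc6 11.23 and at most 10.04, and Ifit1 7.25 and at most 6.08. T cell markers lay 2.29 and B cell markers 1.44 above their usual level on that array, and macrophage markers at -2.32 from theirs.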

How the results depend on the processing

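No difference of a gene that passed changed sign under any alternative (0 of 615), and 416 of the 615 still passed. Counts of members that passed moved more. For 4T1OE minus 4T1OE-CTL the 9 became 0 with all 12 arrays (25 of all features passed, against 1051), 0 with each array's standard deviation in the model (4), 15 with array weights (2140), 0 without the 2 arrays highest in B cell markers (60) and 0 without the arrays with a standard deviation under 3 (15). For 4T1OE-CTL minus parental the 17 became 8 with all 12 arrays (157 of all features, against 575), 11 without the arrays high in B cell markers and 6 without those of narrow spread (142). For 4T1OE minus parental the 1 became 0 under quantile normalization, 0 with an intensity trend, 4 with weights, 7 by the console's usual rule (unadjusted p under 0.05 and 2-fold), 0 without the arrays high in B cell markers (98 of all features, against 295) and 3 without those of narrow spread. Within WT hosts the 0 became 2 with weights and 16 by the console's rule, and the median of -0.91 became -0.59 without arrays of narrow spread. Within Nlrx1-/- hosts the 1 became 0 with all 12 arrays, quantile normalization, the standard deviation as a covariate, the groups compared alone or without the arrays high in B cell markers, and 8 by the console's rule, and the median of -0.53 became -0.22 without the arrays high in B cell markers. By the console's rule 5 members passed for the interaction, 5 between hosts in parental and 5 in 4T1OE-CTL tumours. That rule makes no adjustment for the number of features. Its p-value part alone held for 3073 of all 22206 features in 4T1OE minus parental, 1793 within WT and 4611 within Nlrx1-/- hosts. It held for 726 in the interaction, 1044 between hosts in parental and 2121 between hosts in 4T1OE-CTL tumours. The number that also differed 2-fold is not given here. Without the arrays high in B cell markers the median was 0.78 for the interaction and -0.61 between hosts in 4T1OE-CTL tumours, and with all 12 arrays it was -0.24 between hosts in parental tumours. The cause of these shifts was not tested, except that settings with fewer arrays also had fewer degrees of freedom. The alternatives on B cell markers and on spread were chosen after seeing the data. Without the arrays of narrow spread, 1 4T1OE-CTL array remained, so no value within Nlrx1-/- hosts could be had.

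With 1 array left out in turn, the counts ran from 1 to 11 and the medians from -0.86 to -0.55 for 4T1OE minus 4T1OE-CTL, from 3 to 18 and 1.08 to 1.50 for 4T1OE-CTL minus parental, and from 0 to 3 and 0.35 to 0.73 for 4T1OE minus parental. Between hosts they were 0 throughout, with medians of -0.29 to -0.07 over all lines, -0.72 to -0.49 in parental, -0.61 to 0.12 in 4T1OE-CTL and 0.06 to 0.22 in 4T1OE tumours. Within WT hosts the count was 0 and the median -1.03 to -0.59, within Nlrx1-/- hosts 0 to 1 and -0.85 to -0.15, and for the interaction 0 and -0.21 to 0.70. The replicate numbers did not pair the samples: correlations of same-numbered deviations, across features, ran from -0.31 to 0.61. With the replicate block 9 members passed for 4T1OE minus 4T1OE-CTL and 15 for 4T1OE-CTL minus parental, and within Nlrx1-/- hosts the 1 became 0. Dim probes limit Oas2, Oas3, Oasl1, Rsad2 and Ifi27l2a, and Isg15 lay under the negative controls on 3 fitted arrays.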
